A study of Sus scrofa with 92 samples.

Results

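The genes described here are those with which the liver makes glucose and stores it as glycogen. They were chosen by name, as the rows of the count table whose pig Ensembl identifier carries the symbol PCK1, PCK2, G6PC, FBP1, PC, PYGL, GYS2 or PPP1R3C. Of these 8 genes, 6 were matched among the 25322 identifiers of the table: PCK1 (ENSSSCG00000007507), PCK2 (ENSSSCG00000002009), PC (ENSSSCG00000012926), PYGL (ENSSSCG00000005024), GYS2 (ENSSSCG00000000577) and PPP1R3C (ENSSSCG00000010464). G6PC and FBP1, which encode glucose 6-phosphatase and fructose 1,6-bisphosphatase, were matched to no row and are not analysed here. All 6 matched genes passed the filter on low counts in every comparison, and the lowest count of any of them in a library used was 29.

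The liver releases glucose in the fasted state by breaking down glycogen and by gluconeogenesis, the synthesis of glucose from lactate, amino acids and glycerol. Pyruvate carboxylase (PC) carries pyruvate into oxaloacetate, and the phosphoenolpyruvate carboxykinases, cytosolic (PCK1) and mitochondrial (PCK2), turn oxaloacetate into phosphoenolpyruvate. PCK1 is a classical fasting gene, induced by glucagon and glucocorticoids and repressed by insulin. PYGL is the liver glycogen phosphorylase, which frees glucose units from glycogen, GYS2 is the liver glycogen synthase, and PPP1R3C (protein targeting to glycogen) brings protein phosphatase 1 to the glycogen particle.

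The study asked whether a carbohydrate meal before injury alters the liver's transcriptional response to hemorrhagic shock. Juvenile male Yorkshire-Landrace pigs, all fasted overnight, were either left fasted (FS, 18 animals) or given a sugar syrup shortly before anesthesia (CPF, carbohydrate prefed, 5 animals). All were instrumented, splenectomized, injured (blunt chest injury and liver crush), bled into shock and resuscitated, so that no group without injury stands beside them, and the Baseline biopsy itself followed instrumentation. Biopsies of the liver edge were taken at Baseline (B) and again during full resuscitation, where FR2, FR8 and FR20 are named for hours 2, 8 and 20. Of these animals, 3 FS and 2 CPF animals died.

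Of the 92 libraries, 88 were used: 15 FS libraries at B and 18 at each later timepoint, and 5 CPF libraries at B, FR2 and FR20 and 4 at FR8. Their totals ran from 6877117 to 16613261 counts with a median of 12071957. The FR8 library of CPF animal 3, with 4388 counts in all, and the B libraries of FS animals 17, 19 and 21 were left out. In those 3 B libraries the striated muscle markers summed to 37786 to 43951 CPM (the depth-scaled count, here per the library's own total) and albumin reached at most 52.7 CPM, against 7.46 to 106 CPM of muscle markers and at least 13202 CPM of albumin in the libraries used. All 88 libraries thus held the defining markers of the labelled tissue, liver. The summed hepatocyte markers (7 of 9 genes matched) went, as a share of the library, from a median of 154670 CPM at B to 45764 CPM at FR20 in FS animals. The summed pericentral markers (6 of 7 matched) had FS medians of 4360, 3185, 1829 and 2012 CPM at B, FR2, FR8 and FR20, the periportal ones (3 of 5) 2458, 2841, 1976 and 1735 CPM, and the neutrophil ones (4 of 5) 0.796, 13.6, 7.01 and 4.95 CPM. Their part in the results below was not tested, and in bulk tissue fewer cells of a type and less RNA per cell cannot be told apart.

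Some libraries went against their timepoint label. Each library was set against the median profile of every timepoint in the other animals, over 2293 genes that changed in FS animals, none of them a member or a listed pathway gene. Of the 88 libraries, 17 in 8 animals were nearest the profile of another timepoint, and 14 of these belonged to FS animals 9, 10, 17, 19 and 21. In animals 17, 19 and 21 the FR2 library was nearest FR8, the FR8 library nearest B (r = 0.894, 0.751 and 0.897) and the FR20 library nearest FR2. In animal 10 the B library was nearest FR8, the FR2 library nearest FR20 and the FR8 library nearest FR2, and in animal 9 the FR8 library was nearest FR20 and the FR20 library nearest FR8. Single libraries of FS animal 20 and of CPF animals 8 and 13, all labelled FR20, were nearest FR8, FR8 and B. The labels were kept as given, the cause was not tested, and the results are given with and without those 5 FS animals. They were set aside by the time profile of other genes. Smaller p-values, larger changes and ranges that no longer overlap without them are therefore no independent support. How many of all genes stopped overlapping without them was not counted.

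In FS animals the glycogen synthase GYS2 and the cytosolic and mitochondrial carboxykinases PCK1 and PCK2 fell during resuscitation, the phosphatase subunit PPP1R3C rose, and pyruvate carboxylase PC rose late, whereas the glycogen phosphorylase PYGL did not pass the test at any timepoint. Levels are CPM on library sizes scaled by the trimmed mean of M-values (TMM); they are not per gene length and are compared within a gene only. Changes are log2 fold changes from edgeR's quasi-likelihood test with a term for each animal, adjusted by Benjamini-Hochberg over 13667 genes, and a gene passed at an adjusted p under 0.05. At the first step, FR2vB, 2 of the 6 genes passed, 1 higher and 1 lower, beside 41.4% of all genes tested (20.3% higher, 21.1% lower). At FR8vB 4 of 6 passed, 1 higher and 3 lower, beside 39.3% of all genes (19.9% higher, 19.5% lower). At FR20vB 4 of 6 passed, 2 in each direction, beside 33.8% of all genes (17.4% higher, 16.4% lower). The median log2 fold change of the 6 genes at these timepoints was -0.34, -0.59 and -0.19, and that of all genes tested -0.04, -0.0016 and 0.04. Without the 5 animals 2, 5 and 4 of the 6 genes passed, beside 49.7%, 53.3% and 43.8% of all genes.

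**Figure D1:**
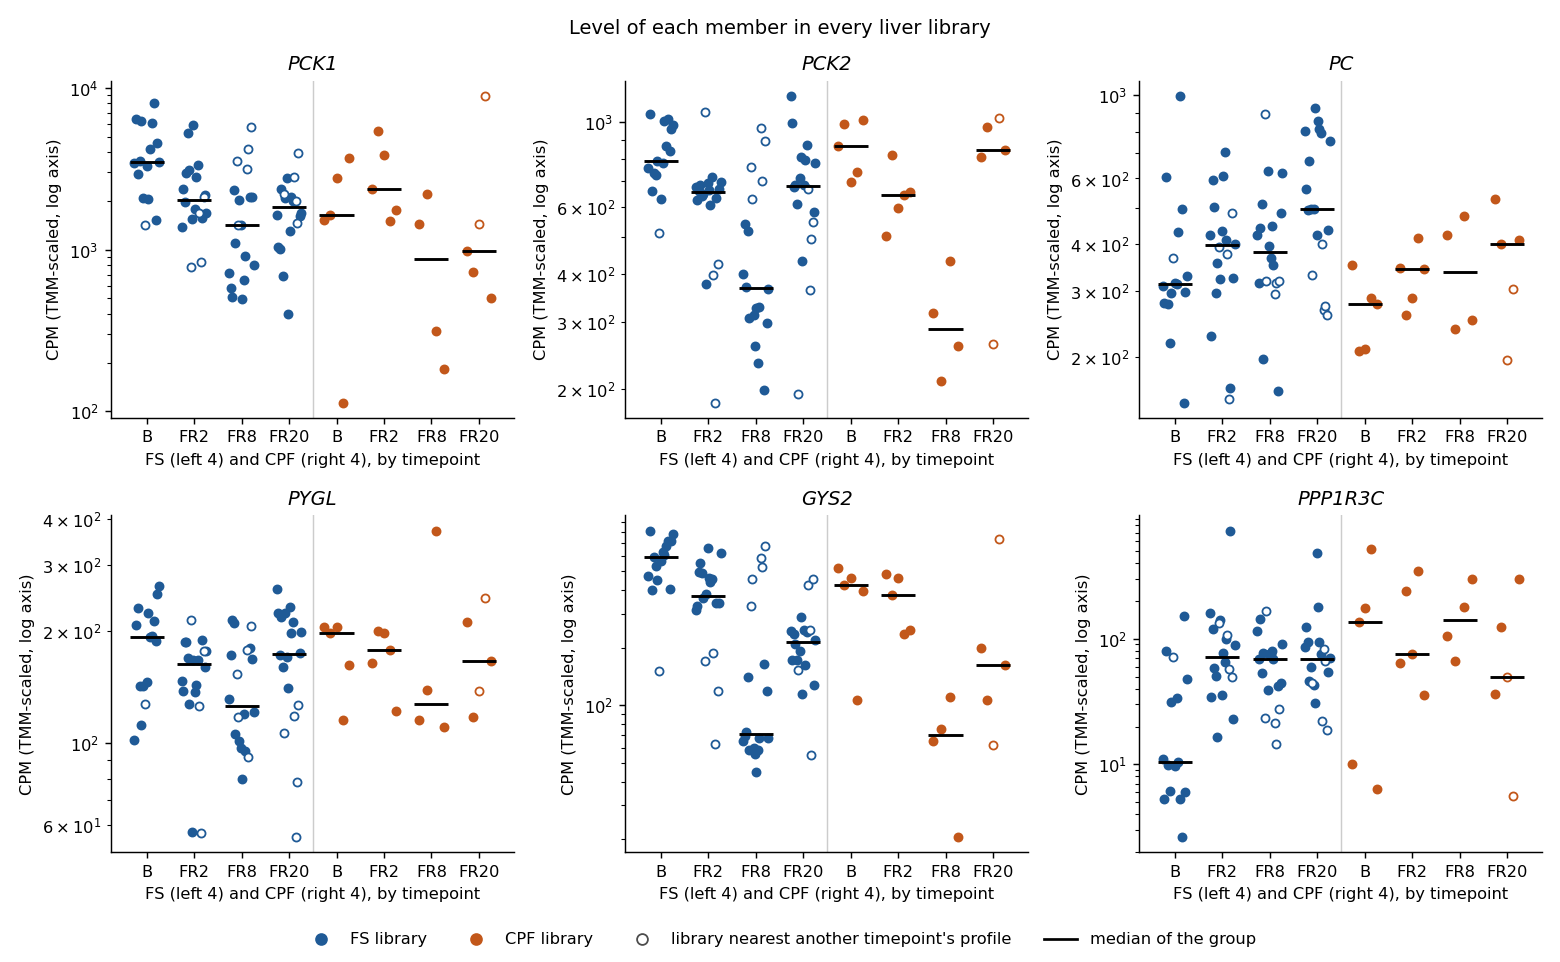
Each point is 1 liver library, with its level in CPM on TMM-scaled library sizes on a log axis, for FS (blue) and CPF (orange) animals at B, FR2, FR8 and FR20; black lines are group medians and open points are libraries nearest another timepoint's profile. The FS median of GYS2 went from 593 CPM at B to 70.9 CPM at FR8 and that of PPP1R3C from 10.5 to 69.4 CPM, with 5 open FS points above the other FR8 libraries for GYS2.

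Of the gluconeogenic genes, PCK1 had from 1422 to 8096 CPM at B in FS animals, with a median of 3486 CPM. Its median was 2038 CPM at FR2 (783 to 5907), 1417 CPM at FR8 (498 to 5727) and 1845 CPM at FR20 (399 to 3977). The ranges overlapped throughout, with animals 6 and 12 among the highest at FR2 and the lowest at FR20. PCK1 fell at FR8vB (log2 fold change -1.38, SE 0.38, adjusted p = 0.00284, lower in 13 of 15 animals) and at FR20vB (-1.25, SE 0.36, adjusted p = 0.00568, lower in 13 of 15). At FR2vB it was lower in 12 of 15 animals and missed the threshold (-0.83, SE 0.36, adjusted p = 0.0536). It passed there with RLE size factors (0.04997), DESeq2 (0.0294) and edgeR's likelihood ratio test (0.0360). Neither limma nor the other alternative settings passed it, and 8 of 23 fits that left out 1 animal did. With those 5 animals left out PCK1 was -0.71 at FR2vB (adjusted p = 0.127), -1.90 at FR8vB (9.80e-05) and -1.47 at FR20vB (0.00204), and lower in 13 of 13 animals at FR20.

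PCK2, which works inside the mitochondrion, moved with a dip at FR8. Its levels ran from 514 to 1054 CPM at B (median 791), from 185 to 1062 CPM at FR2 (median 656), from 199 to 967 CPM at FR8 (median 368) and from 194 to 1170 CPM at FR20 (median 679). The 5 highest FR8 libraries were those of animals 17, 21, 9, 19 and 10, the ones that went against their label. PCK2 fell at FR8vB (-0.87, SE 0.20, adjusted p = 3.03e-04, lower in 14 of 15 animals) and, by less, at FR2vB (-0.44, SE 0.19, adjusted p = 0.0487, lower in 13 of 15). The FR2vB call was lost in 15 of 23 fits that left out 1 animal, with no filter on low counts (adjusted p = 0.0748) and without animal terms (0.0586). At FR20vB its log2 fold change was -0.33 (SE 0.19, adjusted p = 0.166). Without the 5 animals the FR8 libraries held 199 to 542 CPM and the B libraries 631 to 1054 CPM, with no overlap, and the change was -1.34 (SE 0.13, adjusted p = 1.76e-12). As those animals were set aside by time profile, this separation is no independent support.

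PC, the entry enzyme of the pathway, showed the opposite direction and a later change. Its FS median was 313 CPM at B (151 to 994), 398 CPM at FR2 (155 to 705), 382 CPM at FR8 (162 to 891) and 498 CPM at FR20 (260 to 924). Animal 15 alone, with 994 CPM at B, stood above all other B libraries, whose highest was 607 CPM. PC rose at FR20vB (0.69, SE 0.15, adjusted p = 2.49e-04, higher in 13 of 15 animals), while its log2 fold changes at FR2vB (0.20, SE 0.15) and FR8vB (0.28, SE 0.15) had adjusted p-values of 0.30 and 0.133. The FR20vB change without the 5 animals was 0.80 (SE 0.14, adjusted p = 1.02e-05).

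Of the glycogen genes, GYS2 was lowest at FR8 in most FS animals. It had from 151 to 813 CPM at B (median 593), from 63.2 to 658 CPM at FR2 (median 373), from 44.9 to 680 CPM at FR8 (median 70.9) and from 54.7 to 455 CPM at FR20 (median 214). At FR8 13 of 18 libraries lay between 44.9 and 164 CPM, and the other 5, at 330, 458, 528, 587 and 680 CPM, came from animals 9, 10, 19, 17 and 21, which went against their label. The lowest B library, 151 CPM, was that of animal 10. GYS2 fell at FR8vB (-2.01, SE 0.38, 4.03-fold, adjusted p = 2.52e-05, lower in 14 of 15 animals) and at FR20vB (-1.64, SE 0.34, adjusted p = 1.49e-04, lower in 14 of 15). At FR2vB it was -0.64 (SE 0.33, adjusted p = 0.114, lower in 12 of 15). Without the 5 animals the 13 FR8 libraries (44.9 to 164 CPM) and the 13 B libraries (397 to 813 CPM) did not overlap, and the change was -2.94 (SE 0.28, adjusted p = 9.47e-13), beside -1.68 (SE 0.26) at FR20vB. Here too the separation followed a removal by time profile and is no independent support.

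PPP1R3C, which targets the phosphatase that activates glycogen synthase, was low and uneven at B in FS animals. It had from 2.64 to 151 CPM there with a median of 10.5 CPM; 9 libraries were at or under 11.1 CPM and 6 at or over 31.6 CPM. Its median was 71.4 CPM at FR2 (16.6 to 723), 69.4 CPM at FR8 (14.5 to 167) and 68.8 CPM at FR20 (18.9 to 482). No library of a later timepoint was as low as the 9 low B libraries, while the 6 others lay within the later ranges. PPP1R3C rose at FR2vB (2.23, SE 0.475, 4.69-fold, adjusted p = 1.42e-04, higher in 14 of 15 animals), FR8vB (1.77, SE 0.46, adjusted p = 0.00163, 13 of 15) and FR20vB (2.14, SE 0.48, adjusted p = 3.48e-04, 13 of 15). In the fit without animal terms the FR8vB call was lost (1.08, SE 0.49, adjusted p = 0.0792). Its changes without the 5 animals were 2.48, 2.23 and 2.63, and it was higher in 13 of 13 animals at FR2.

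PYGL, which removes the glucose units that GYS2 adds to the chain, passed at no timepoint in the 18 FS animals. Its FS medians were 192 CPM at B (102 to 264), 163 CPM at FR2 (57.2 to 214), 126 CPM at FR8 (80.0 to 214) and 173 CPM at FR20 (55.8 to 259), and the ranges overlapped at all timepoints. The log2 fold changes were -0.23 (SE 0.16) at FR2vB, -0.30 (SE 0.16) at FR8vB and -0.05 (SE 0.16) at FR20vB, with adjusted p-values of 0.241, 0.124 and 0.827. The FR8vB change without the 5 animals was -0.48 (SE 0.17) and passed (adjusted p = 0.0154, lower in 11 of 13 animals).

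**Figure D2:**
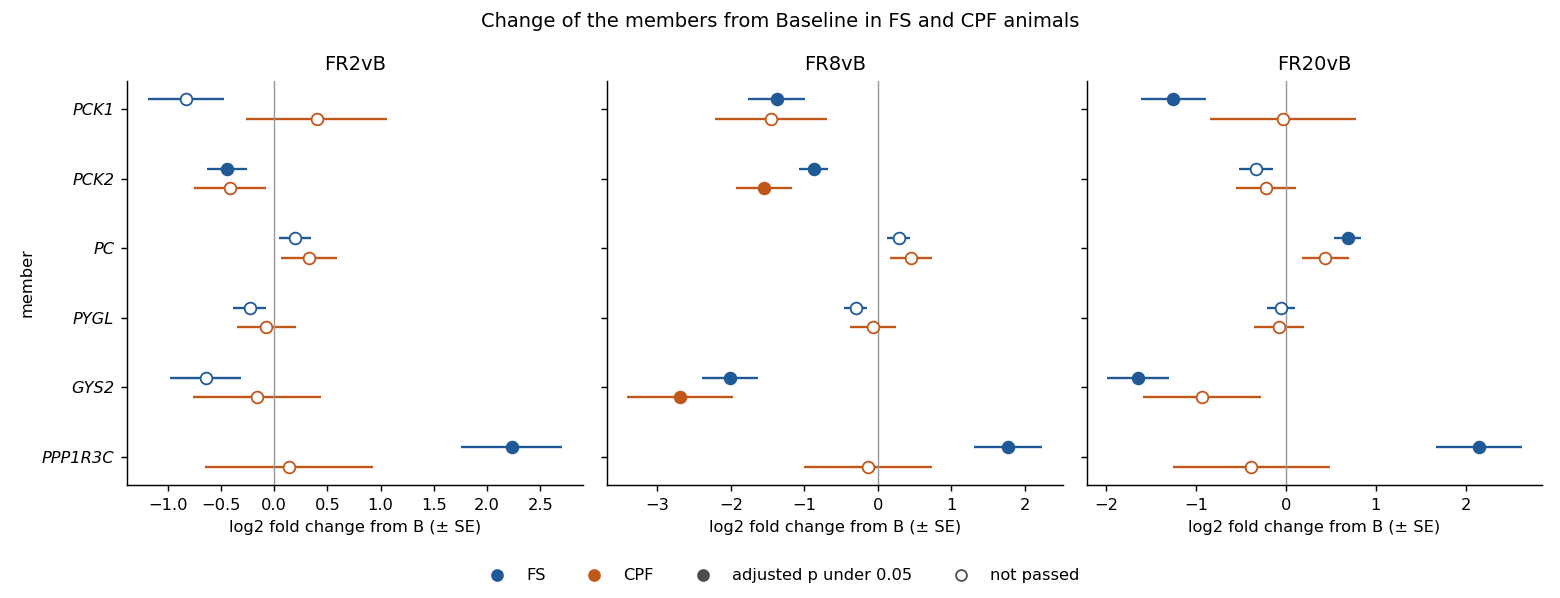
Points are log2 fold changes from B with their SE (edgeR quasi-likelihood test) for FS (blue) and CPF (orange) animals at FR2vB, FR8vB and FR20vB; filled points passed at an adjusted p under 0.05. In FS animals GYS2 lies at -2.01 at FR8vB and PPP1R3C near 2 at all 3 timepoints, and in CPF animals the filled points are GYS2 (-2.69) and PCK2 (-1.55) at FR8vB.

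Between neighbouring timepoints in FS animals the order of levels was firm at few steps. From FR2 to FR8, 1 of the 6 genes passed, beside 28.4% of all genes: GYS2 fell (-1.37, SE 0.36, adjusted p = 0.00275, lower in 14 of 18 animals). From FR8 to FR20, 0 of 6 passed with edgeR's quasi-likelihood test, beside 6.39% of all genes. DESeq2, edgeR's likelihood ratio test and limma voom with quality weights passed 2, 1 and 4, beside 9.78%, 8.14% and 28.9% of all genes. With the quasi-likelihood test 2 had an unadjusted p under 0.05, beside 21.7% of all genes. These 2 genes were PCK2 (0.54, SE 0.18, adjusted p = 0.0597) and PC (0.41, SE 0.14, adjusted p = 0.0646), each higher at FR20 in 14 of 18 animals. Leaving out animal 9, 19 or 21 alone brought both under the threshold, and leaving out animal 17 alone brought PCK2 under it (adjusted p = 0.0185).

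Without the 5 animals the dip at FR8 stood out for GYS2 and PCK2. From FR2 to FR8 3 of 6 genes fell, beside 47.6% of all genes called in that fit: GYS2 (-2.51, SE 0.27, adjusted p = 7.37e-11), PCK2 (-0.94, SE 0.13, 2.16e-08) and PCK1 (-1.19, SE 0.40, 0.0116). From FR8 to FR20 4 of 6 rose, beside 29% of all genes called: PCK2 (1.11, SE 0.13, adjusted p = 3.42e-09), GYS2 (1.26, SE 0.27, 2.17e-04), PC (0.64, SE 0.14, 4.27e-04) and PYGL (0.48, SE 0.17, 0.0275). PCK2 was higher at FR20 than at FR8 in 13 of 13 animals and GYS2 in 12 of 13. PCK1 (0.43, SE 0.39) and PPP1R3C (0.40, SE 0.48) did not pass at that step.

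**Figure D3:**
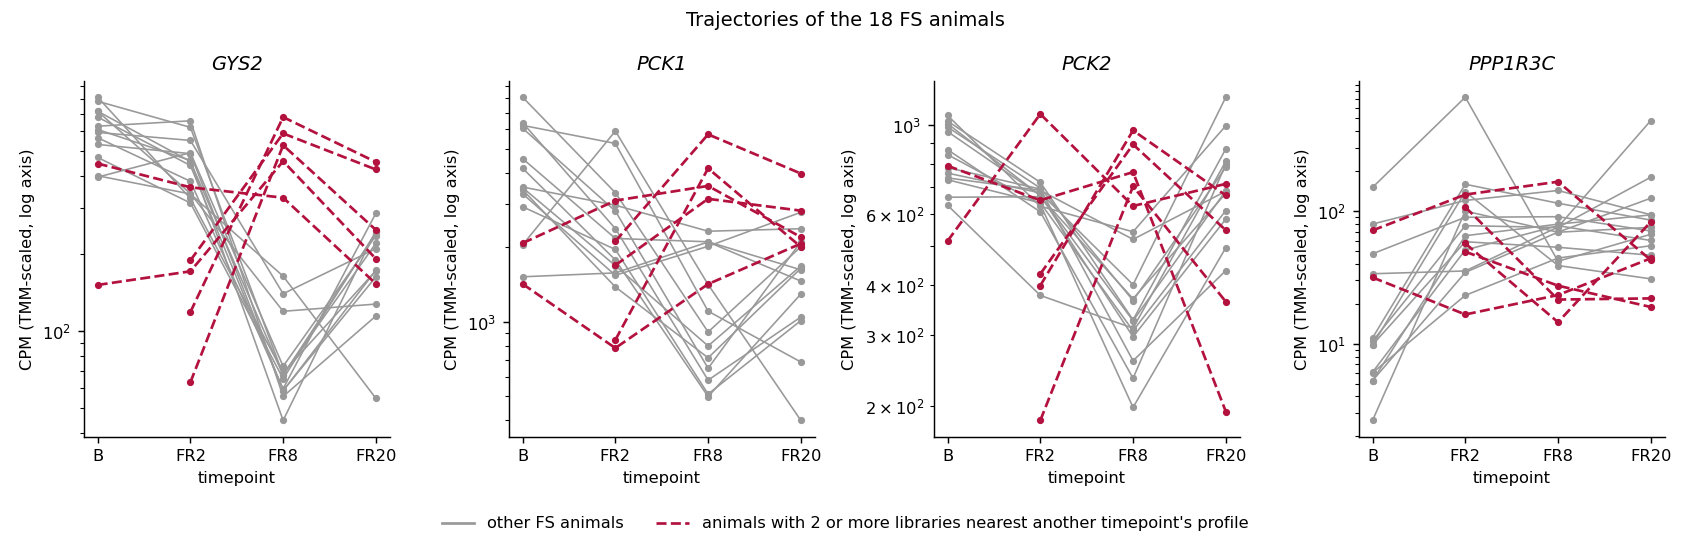
Lines join the libraries of 1 FS animal over B, FR2, FR8 and FR20 (CPM on a log axis) for GYS2, PCK1, PCK2 and PPP1R3C; dashed red lines are animals 9, 10, 17, 19 and 21. The 13 grey GYS2 lines reach 44.9 to 164 CPM at FR8, and the 5 red ones 330 to 680 CPM.

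In CPF animals GYS2 and PCK2 fell at FR8, and none of the 6 genes passed at FR2vB or FR20vB. The comparison rests on 5 animals, 4 at FR8, and on simulated counts it recovered 31 of 100 genes changed by 1 on the log2 scale and 94 of 100 changed by 2 at FR8vB. The spread of the simulated counts was set by level and not taken from the 6 genes, so these shares need not hold for them. The SEs of the 6 genes at FR8vB ran from 0.29 (PC) to 0.87 (PPP1R3C). At FR2vB 0 of 6 genes passed with edgeR's quasi-likelihood test, beside 3.41% of all genes, and 0 had an unadjusted p under 0.05, beside 20%. DESeq2, the likelihood ratio test and limma passed 0 as well, beside 5.89%, 5.3% and 17.9% of all genes. At FR8vB 2 of 6 passed, both lower, beside 13.3% of all genes (6.31% higher, 6.99% lower). At FR20vB 0 of 6 passed, beside 0.893% of all genes, with 0 at an unadjusted p under 0.05, beside 16.5%. DESeq2 and the likelihood ratio test passed 0, beside 3% and 2.29% of all genes. The other tool, limma, which passed 15.8% of all genes, passed 1, GYS2 (-1.31, SE 0.44, adjusted p = 0.0314).

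GYS2 in the CPF animals had 106, 394, 423, 461 and 521 CPM at B, in animals 13, 18, 7, 8 and 3. At FR8 it had 20.5, 64.9, 74.9 and 111 CPM, in animals 18, 7, 8 and 13. The FR8 library of animal 13 was thus about level with its own B library, and the other 3 were below theirs. GYS2 fell at FR8vB (-2.69, SE 0.72, adjusted p = 0.0104) and from FR2, with 237 to 486 CPM, to FR8 (-2.53, SE 0.71, adjusted p = 0.0230, lower in 4 of 4 animals). The FR8vB call was lost without CPF animal 18 (-2.29, adjusted p = 0.0914), and the FR8vFR2 call without animal 7, 8, 13 or 18 (adjusted p = 0.0976, 0.0612, 0.0570 and 0.109).

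PCK2 had 699, 743, 867, 988 and 1011 CPM at B and 211, 260, 316 and 434 CPM at FR8 in the CPF animals, with no overlap. How many of all genes did not overlap between these 2 groups was not counted, so the separation is given as a description only. It fell at FR8vB (-1.55, SE 0.38, adjusted p = 0.00587, lower in 4 of 4 animals) and at FR8vFR2 (-1.13, SE 0.37, adjusted p = 0.0476), the latter lost in 16 of 23 fits that left out 1 animal. The FR8vB call was lost without CPF animal 18 (-1.44, adjusted p = 0.0545). At FR20 4 libraries were back at 811 to 1024 CPM and that of animal 8 was at 262 CPM.

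At FR8vFR2 2 of the 6 genes passed in CPF animals, beside 7.21% of all genes. At FR20vFR8 0 of 6 passed with the quasi-likelihood test, beside 0.022% of all genes. Its unadjusted p was under 0.05 for 2, PCK2 (1.33, SE 0.38, adjusted p = 0.192) and GYS2 (1.76, SE 0.69, adjusted p = 0.320), beside 10.9% of all genes. DESeq2, the likelihood ratio test and limma passed 0, 0 and 1, beside 0.3%, 0.0585% and 2.51% of all genes.

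The other genes were uneven among the CPF animals. PCK1 had 114, 1525, 1626, 2757 and 3691 CPM at B, the lowest in animal 13, and 500, 727, 976, 1449 and 8854 CPM at FR20, the highest again in animal 13. With all animals its FR20vB log2 fold change was -0.03 (SE 0.81), and without animal 13 it was -1.58 (SE 0.61, adjusted p = 0.132). At FR8vB PCK1 was -1.46 (SE 0.76, adjusted p = 0.199), -0.43 without animal 18 and -2.14 without animal 8, with 183, 316, 1441 and 2215 CPM at FR8. PPP1R3C had 6.41, 10.1, 137, 175 and 518 CPM at B, again with animal 13 at the far end, and 66.8, 105, 179 and 301 CPM at FR8. Its changes from B in CPF animals ran from -0.38 (SE 0.87) to 0.14 (SE 0.79), and none of these passed. PC was between 0.33 and 0.45 (SE 0.26 to 0.29) and PYGL between -0.08 and -0.07 (SE 0.28 to 0.31) at the 3 timepoints. The FR8vB value of PYGL depended on animal 13, with 371 CPM at FR8. Without this animal it was -0.61 (SE 0.33, adjusted p = 0.245), and PYGL was lower at FR8 in 3 of 4 animals.

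Whether the meal altered the response was tested as the difference between the CPF and the FS change from B. With edgeR's quasi-likelihood test 0 of the 6 genes passed at FR2vB, FR8vB and FR20vB, beside 0% of all genes at each; DESeq2, the likelihood ratio test and limma also passed 0 of the 6. On simulated counts this test at FR8vB recovered 22 of 100 genes changed by 1 on the log2 scale and 94 of 100 changed by 2. The simulated spread was a set function of level, not taken from the 6 genes, so these shares need not hold for them. The SEs of the 6 genes for this difference at FR8vB ran from 0.32 (PC) to 1.01 (PPP1R3C). Among all genes 397, 468 and 521 had an unadjusted p under 0.05, and DESeq2 passed 0, 2 and 2, the likelihood ratio test 1, 0 and 0 and limma 1, 0 and 1.

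PPP1R3C had the largest differences of the 6 genes, -2.09 (SE 0.93, unadjusted p = 0.0278) at FR2vB, -1.90 (SE 1.01, 0.0633) at FR8vB and -2.52 (SE 1.00, 0.0144) at FR20vB, with the CPF change the lower, and adjusted p-values of 1.0, 0.999 and 1.0. Without CPF animal 13, whose B library was the highest of those used, these became -1.66, -1.13 and -1.56, with unadjusted p-values of 0.0917, 0.302 and 0.130. For GYS2 the differences were 0.48 (SE 0.69), -0.68 (SE 0.77) and 0.71 (SE 0.73), of which the FR8vB one was -0.26 without CPF animal 18 and the FR20vB one -0.12 without CPF animal 13, and for PCK2 0.03 (SE 0.38), -0.68 (SE 0.42) and 0.11 (SE 0.39). PCK1 differed by 1.23 (SE 0.76) at FR2vB and 1.22 (SE 0.87) at FR20vB, the latter -0.33 without CPF animal 13. With all animals PC and PYGL differed by at most 0.25 in either direction, and PYGL at FR8vB was -0.30 (SE 0.36) without CPF animal 13.

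Set against each other at a single timepoint, CPF and FS animals differed in none of the 6 genes by the test, with any of the 4 tools. At B 0 of 6 passed, beside 0.0342% of all genes, and 2 had an unadjusted p under 0.05, beside 7.66% of all genes. PPP1R3C was higher in CPF (2.42, SE 0.78, unadjusted p = 0.00496, adjusted p = 0.356) and PCK1 lower (-1.03, SE 0.49, unadjusted p = 0.0472, adjusted p = 0.636). Without animal 13 they were 1.37 (SE 0.82) and -0.72 (SE 0.40), with unadjusted p-values of 0.110 and 0.0836. At FR2, FR8 and FR20 0 of 6 passed, beside 0% of all genes. An unadjusted p under 0.05 was held by 0, 1 and 0, beside 5.58%, 5.17% and 3.25% of all genes. The 1 was PPP1R3C at FR8, higher in CPF (1.25, SE 0.43, unadjusted p = 0.00780, adjusted p = 0.870). GYS2 at FR8 was -1.59 (SE 0.80) with all FS animals and -0.23 (SE 0.36) without the 5 that went against their label.

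The 5 animals that died (3 FS, 2 CPF) were compared with those that lived at each timepoint, with a term for feeding. None of the 6 genes passed at B, FR2, FR8 or FR20 with edgeR's quasi-likelihood test, DESeq2, the likelihood ratio test or limma, beside 0% of all genes with the first. At an unadjusted p under 0.05 there were 0, 2, 0 and 1, beside 8.54%, 5.52%, 2.22% and 5.22% of all genes. GYS2 at FR20 was lower in animals that died (-1.02, SE 0.39, unadjusted p = 0.0156, adjusted p = 0.904), with 54.7, 62.1, 107, 172 and 240 CPM in those 5. The FR20 libraries of 2 of them, FS animal 20 (54.7 CPM) and CPF animal 8 (62.1 CPM), were nearest the FR8 profile, and that of CPF animal 13, which lived and had 737 CPM, nearest B. Without FS animal 20 the difference was -0.83 (SE 0.41, unadjusted p = 0.0564). At FR2 PPP1R3C was 1.37 (SE 0.53, unadjusted p = 0.0154), which rested on FS animal 20 at 723 CPM and was -0.10 (SE 0.55) without it, and PC was -0.59 (SE 0.25, unadjusted p = 0.0294).

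The other genes of the pathway moved in both directions. Of 24 genes listed for gluconeogenesis and glucose output 18 were matched and 17 tested. At FR2vB 4 rose and 4 fell in FS animals, and 6 of each did so at FR8vB and 5 of each at FR20vB, beside 41.4%, 39.3% and 33.8% of all genes called in either direction. The median log2 fold change was 0.02, 0.04 and 0.16. The enzymes that rose included PGAM1 (phosphoglycerate mutase; 0.87 at FR2vB, 0.94 at FR8vB, 0.64 at FR20vB), ENO1 (enolase; 0.81 and 0.82 at FR2vB and FR8vB), MDH1 (cytosolic malate dehydrogenase; 0.76 and 0.72 at FR2vB and FR20vB), LDHA (lactate dehydrogenase A; 1.00 at FR8vB) and GAPDH (0.62 at FR20vB). Except MDH1, these work in both glycolysis and gluconeogenesis.

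Those that fell included aminotransferases and a glucose 6-phosphate transporter. TAT, the tyrosine aminotransferase, a classical glucocorticoid-induced liver gene, went from a median of 3384 CPM at B (375 to 7305) to 341 CPM at FR8 (109 to 5415); its log2 fold change was -1.74 at FR2vB, -2.39 at FR8vB and -1.74 at FR20vB. SLC37A4, the glucose 6-phosphate transporter that feeds glucose 6-phosphatase, went from 832 CPM (221 to 1378) to 175 CPM at FR8 (0 to 1025), with -2.04 at FR8vB and -2.06 at FR20vB. The alanine aminotransferases also fell, GPT (-0.60 at FR2vB, -1.44 at FR20vB) and GPT2 (-1.19 at FR8vB), and so did the glycerol 3-phosphate dehydrogenase GPD1 (-0.52 at FR2vB).

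Of 29 further glycogen genes 23 were matched and 20 tested. At FR2vB 9 rose and 6 fell in FS animals, against 4 and 6 at FR8vB and 6 and 3 at FR20vB, beside the same shares of all genes (41.4%, 39.3% and 33.8%). Their medians were 0.32, -0.03 and 0.10. Among the subunits that bring protein phosphatase 1 to glycogen, PPP1R3B, the liver form, rose like PPP1R3C (1.10, 1.22 and 1.43 at FR2vB, FR8vB and FR20vB), from a median of 11.1 CPM at B (6.69 to 54.3) to 34.7 CPM at FR8 (9.60 to 74.2). PPP1R3G went the other way (-1.17, -2.14 and -2.60), from 4.56 CPM (0.709 to 33.3) to 0.896 CPM at FR20 (0.142 to 3.11). The glycogen primer GYG1 (0.76 at FR2vB, 0.64 at FR20vB), the catalytic subunit PPP1CC (0.64 at FR8vB, 0.51 at FR20vB) and the kinase GSK3A (0.88 at FR2vB, 0.62 at FR8vB) rose. On the side of breakdown, PHKA2, a subunit of phosphorylase kinase, fell at all 3 timepoints (-1.30, -1.32 and -0.82). UGP2, which makes UDP-glucose, fell at FR8vB (-0.88) and the glycogen phosphatase EPM2A at FR20vB (-0.80).

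Of 24 listed regulators 17 were matched and 15 tested. At FR2vB 7 rose and 2 fell in FS animals, against 7 and 3 at FR8vB and 5 and 3 at FR20vB, again beside 41.4%, 39.3% and 33.8% of all genes. Their medians were 0.51, 0.14 and 0.35. FOXO1, the insulin-restrained factor that binds gluconeogenic promoters, fell at all 3 timepoints (-1.43, -1.31 and -1.49; median 65.0 CPM at B, 25.9, 22.96 and 24.7 CPM later), as did FOXO3 (-0.77, -1.53 and -1.21). SIK1, a kinase that restrains CREB signaling, fell at FR8vB (-1.68) and FR20vB (-1.73). CREB3L3, a liver-enriched factor of the fasting response, rose at FR8vB (1.70) and FR20vB (1.42), and CEBPA rose at all 3 timepoints (1.21, 1.48 and 1.04). PFKFB3, which makes the activator of glycolysis fructose 2,6-bisphosphate, rose at FR2vB (2.49; median 0.897 CPM at B, 5.54 CPM at FR2) and FR20vB (1.48).

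In CPF animals MDH1 (0.97) and GYG1 (0.85) rose and FOXO1 fell (-1.74) at FR2vB, and 0 of the 52 listed genes passed at FR20vB with edgeR's quasi-likelihood test. Of all genes 3.41% passed at FR2vB and 0.893% at FR20vB. At an unadjusted p under 0.05 there were 12 of the listed genes at FR20vB, beside 16.5% of all genes. There DESeq2, the likelihood ratio test and limma passed 3, 2 and 15, beside 3%, 2.29% and 15.8% of all genes. At FR8vB the gluconeogenesis list had 4 genes higher and 1 lower, the glycogen list 1 and 4, and the regulators 2 and 2, beside 6.31% of all genes higher and 6.99% lower. Among the listed genes FOXO1 fell by 1.96, PPP1R3G by 3.89 and GPT by 1.41 on the log2 scale, and CREB3L3 (2.46) and LDHA (1.26) rose. With the 5 FS animals left out the gluconeogenesis list had 5 genes higher and 4 lower at FR2vB, 6 of each at FR8vB, and 7 higher and 5 lower at FR20vB. In the same order the glycogen list had 10 and 6, 4 and 7, and 7 and 5, and the regulators 7 and 1, 7 and 5, and 6 and 4. That fit called 49.7%, 53.3% and 43.8% of all genes in either direction. GPT (-0.42, adjusted p = 0.0917) and FOXO3 (-0.65, adjusted p = 0.0909) then missed the threshold at FR2vB, and GPT2 at FR8vB was -1.95. In the test of the difference between the CPF and FS change, 0 of the 52 listed genes passed at FR2vB, FR8vB and FR20vB with the quasi-likelihood test. At an unadjusted p under 0.05 there were 2, 4 and 9, beside 2.9%, 3.42% and 3.81% of all genes. The other tools passed 0 except DESeq2 with 1 at FR20vB, beside 0.0146% of all genes.

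**Figure D4:**
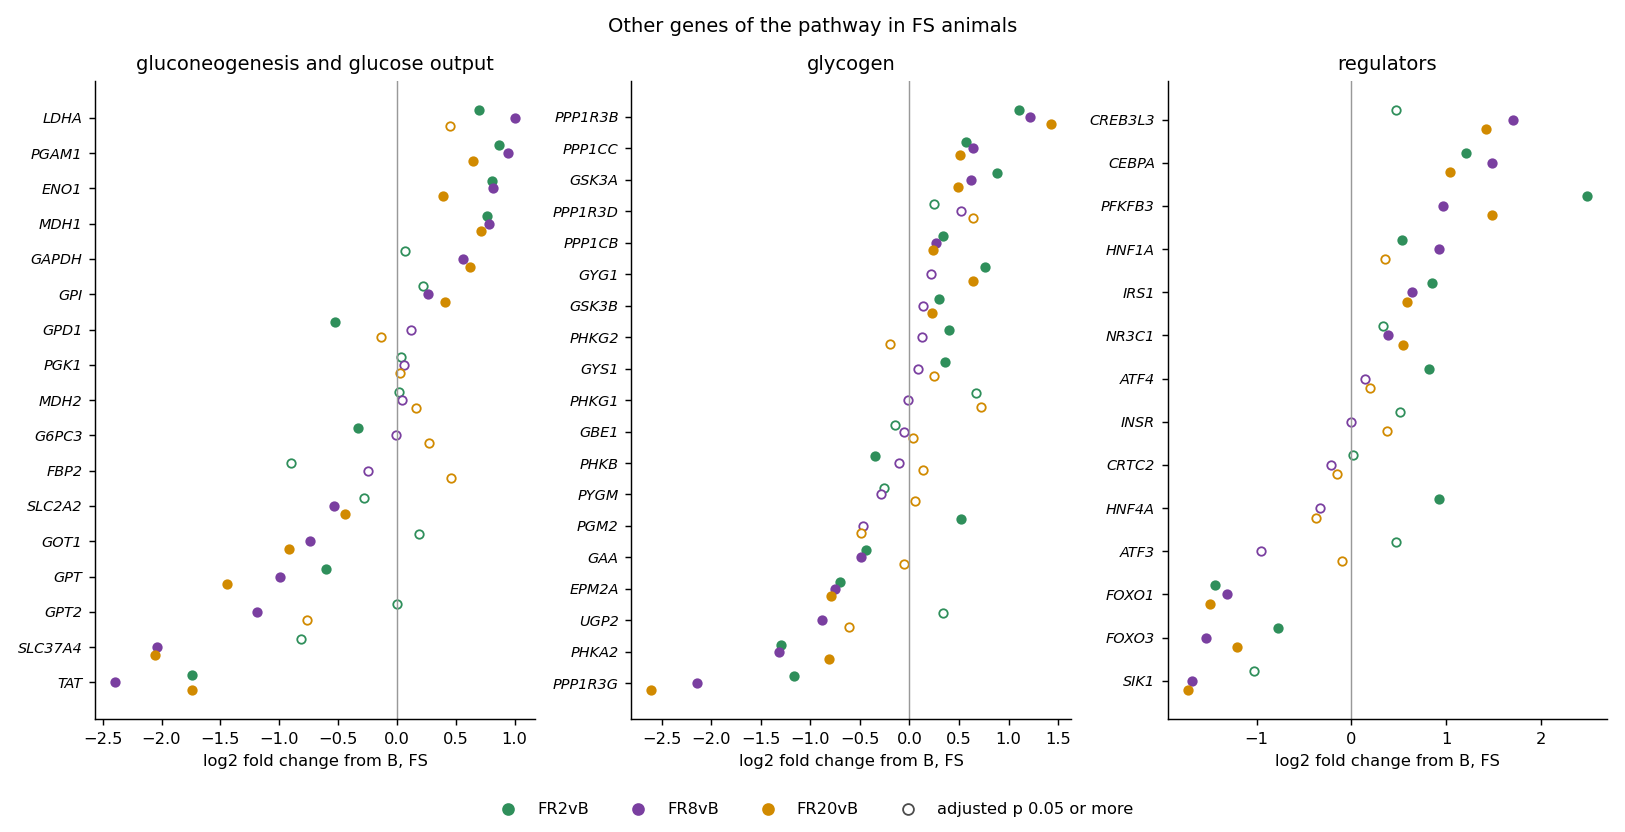
Points are log2 fold changes from B in FS animals for the tested genes of the 3 lists that are reported here, coloured by timepoint and filled where the adjusted p was under 0.05. PPP1R3G, TAT and SLC37A4 lie lowest, down to -2.60, and PFKFB3 and CREB3L3 highest, up to 2.49.

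The genes whose levels ran most like a member's over the 69 FS libraries were found by Pearson correlation of log2 CPM, given as a description, since the libraries come from 18 animals at 4 timepoints. For PCK1 they were PNPLA2 (r = 0.851) and INSIG1 (0.837), for PCK2 IVD (0.95) and APOF (0.915), and for PC HADHA (0.83) and HADHB (0.777). For PYGL they were VNN1 (0.825) and ATG9A (0.814), for GYS2 DPP4 (0.95) and MPDZ (0.934), and for PPP1R3C PPP1R3B (0.810) and GSE1 (0.748).

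Across FS animals at B, FR8 and FR20 PCK1 and PPP1R3C ran opposite to each other. This relation was examined after the values had been seen, as 1 of 15 pairs of members at each of 4 timepoints in FS animals, 60 in all, on log2 CPM with 100000 permutations. At B, over 15 animals, Pearson's r was -0.884 (permutation p = 1e-05, the smallest these permutations can give, adjusted p = 0.0003) and Spearman's rho -0.886 (permutation p = 4e-05, adjusted p = 0.0018). Without the 2 animals farthest from the median of PCK1 r was -0.844, and without animals 9 and 10, the ones with a B library among the 5, it was -0.876. At FR20, over 18 animals, r was -0.820 (permutation p = 5e-05, adjusted p = 0.00072) and rho -0.761 (permutation p = 0.0004, adjusted p = 0.004), and r was -0.842 without the 2 farthest animals. At FR8 r was -0.815 (permutation p = 6e-05, adjusted p = 0.00072) and -0.758 without the 2 farthest, and at FR2 the relation was not past the threshold by r (-0.456, permutation p = 0.0577, adjusted p = 0.155) but was by rho (-0.639, adjusted p = 0.0297). The 3 FS animals with the most PCK1 at B, animals 16, 2 and 6, had 2.64, 5.26 and 6.10 CPM of PPP1R3C, and the 2 with the least, animals 10 and 20, had 71.5 and 151 CPM. Both levels share a library and its scaling. Of the 60 relations 12 passed by both r and rho, and 3 of these were this pair. The others joined GYS2 with PCK1 at B (r = 0.704), with PCK2 at B (0.806) and with PPP1R3C at B (-0.601), PYGL with PCK2 at FR2 (0.818) and FR20 (0.727), PC with PCK2 (0.703) and PYGL (0.820) at FR20, and GYS2 with PCK1 and PCK2 at FR8. At FR8 the GYS2 levels of the 5 animals stood above those of the other 13, and over these 13 r was 0.663 with PCK1 and -0.0405 with PCK2.

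**Figure D5:**
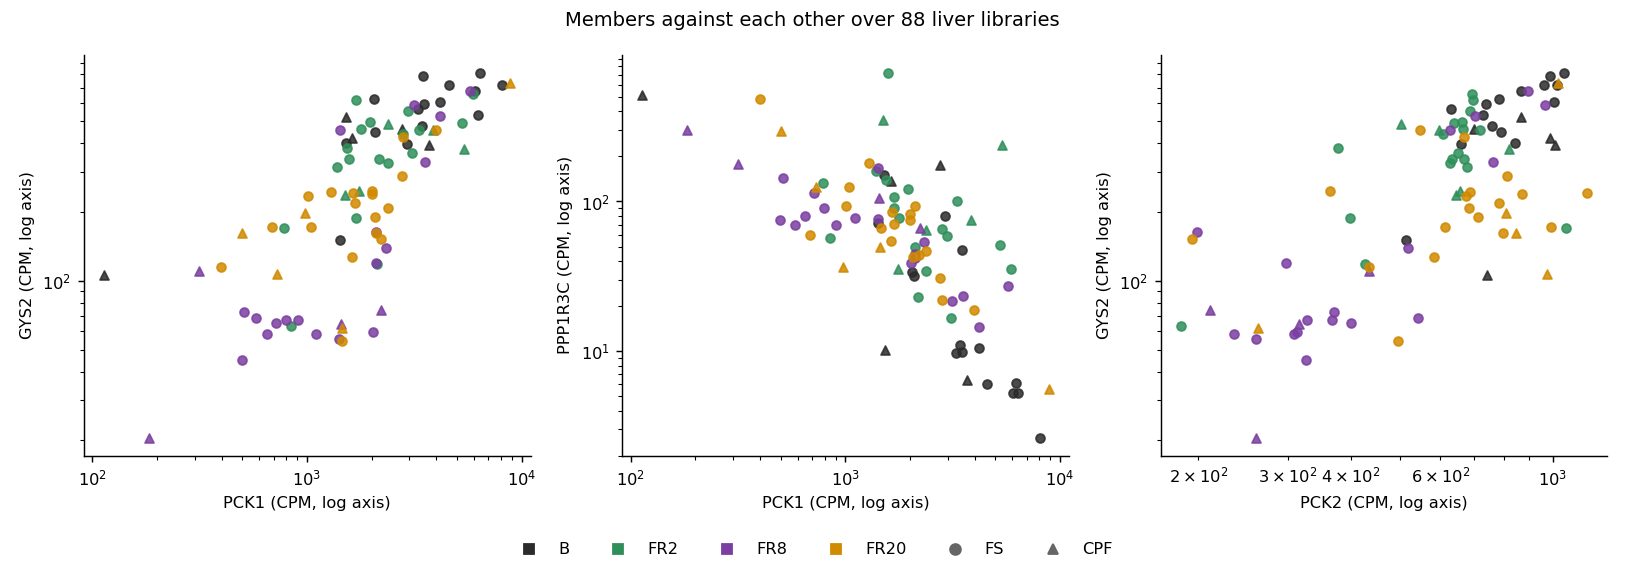
Each point is 1 of 88 liver libraries (circles FS, triangles CPF, colour by timepoint), with the CPM of 1 member against another on log axes: GYS2 against PCK1, PPP1R3C against PCK1, and GYS2 against PCK2. PPP1R3C tends to be low where PCK1 is high, with r = -0.884 across the 15 FS animals at B.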

How the data were processed

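Liver biopsies of 23 pigs were sequenced as single-end poly-A RNA libraries. Per the labels and the study's methods, the authors processed reads with CASAVA 1.8.2, aligned them with TopHat 1.5.0 to Sscrofa10.2 and counted them per gene with HTSeq; the deposited values are raw read counts, not normalized, for 25322 identifiers in 92 libraries. No batch is given in the sources used here. Symbols were found for 12504 identifiers, 11804 in a gene name table and 700 in the study's gene lists; the members and lists were chosen with earlier results of these data known. No sequence or coordinate was used.

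Counts were fitted in R 4.3.3 with edgeR 4.0.16 (TMM, genes with summed CPM of at least 10, quasi-likelihood F test, Benjamini-Hochberg adjustment over all genes), checked on simulated data. The fit over time took the 88 libraries, animal terms and a time effect per feeding group; the numbers in the labels mark animals, and deviations of libraries of the same animal correlated above 0.1 in 94 of 126 pairs (median 0.205) and of different animals in 414 of 1791 (median -0.016). Single timepoints were fitted with feeding and survival. Standard errors are the log2 fold change divided by the square root of F. The P-values of the fit over time measure the spread left after the animal terms, and those of the single timepoints the spread between animals. DESeq2 1.42.0, limma 3.58.1, edgeR's likelihood ratio test, RLE size factors, filterByExpr, no filter, both thresholds of the study (adjusted p under 0.05 and log2 fold change of at least 1), no animal terms, keeping the 3 Baseline libraries without albumin, and leaving out each animal were the alternatives; leaving out 5 FS animals together was added after seeing the data. Totals were 6877117 to 16613261 counts, and counting error is largest for PPP1R3C in its low B libraries, down to 29 counts. The members are named in every comparison; of each pathway list, the 3 highest and 3 lowest passing genes in FS are named per timepoint, except 2 that are counted in the lists but not reported here.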

Additional observations from a re-analysis of the deposited data

Results flagged for a closer look

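In 4 of 24 groups of 4 or 5 CPF libraries (6 genes at 4 timepoints), 1 library stood apart from the others by Dixon's 95% criterion on CPM. Chance flags about 1 in 20 groups where values are normal and groups independent. The CPM were not log-transformed here, and the 24 groups share their animals. That rate need not hold, so no conclusion is drawn from the number flagged. PCK1 in CPF animals at FR20 was 8854 CPM in animal 13 and 500 to 1449 CPM in the others. GYS2 at FR20 was 737 CPM in the same animal and 62.1 to 198 CPM in the others. PYGL at FR8 was 371 CPM in animal 13 and 110 to 139 CPM in the others. PCK2 at FR20 was 262 CPM in animal 8 and 811 to 1024 CPM in the others. The FR20 library of animal 13 was nearest the B profile and that of animal 8 nearest the FR8 profile; the part of this in the values was not tested.

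The 4 libraries left out of all comparisons held PPP1R3C above the level of their group. In the B libraries of FS animals 17, 19 and 21 it was 339, 264 and 595 CPM of the library's own total (95% exact intervals 331 to 347, 256 to 271 and 583 to 607, which cover counting error only), against 2.36 to 129 CPM in the 15 FS B libraries used. The other 5 genes were far below their group there, with PCK1 at 2.22 to 5.40 CPM against 1299 to 7243, PCK2 at 1.62 to 6.04 against 504 to 938, PC at 11.7 to 15.4 against 129 to 799, PYGL at 20.5 to 37.1 against 81.4 to 246, and GYS2 at 0 to 0.293 against 167 to 732. The same 3 libraries held 37786 to 43951 CPM of striated muscle markers. In the FR8 library of CPF animal 3 PPP1R3C was at 2051 CPM (9 of 4388 counts, interval 938 to 3890), against 90.3 to 331 CPM in the other CPF libraries at FR8.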

How the results depend on the processing

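At FR2vB in FS animals, where 2 of the 6 genes passed, 1 passed with both thresholds of the study, with no filter on low counts and with no replicate block (without animal terms), and 1 to 3 passed when single animals were left out. Of all genes, 41.4% passed in the main fit, 1505 of 13667 met both thresholds, and 29.9% and 36.2% passed with no filter and no replicate block. The share of all genes was not kept for the fits leaving out single animals. With the 3 Baseline libraries without albumin kept, 0 genes passed at FR2vB, 1 at FR8vB, 1 at FR20vB and 0 at FR8vFR2 in FS animals. In CPF animals 0 passed at FR8vB and 0 at FR8vFR2. Of all genes, 31.4%, 29.8%, 22.7% and 21.2% then passed in the FS comparisons and 3.88% and 2.69% in the CPF ones, in that order. At FR8vB in FS animals the calls on GYS2 (adjusted p = 0.0532), PCK1 (0.219), PCK2 (0.439) and PPP1R3C (0.450) were lost. The 1 gene that passed there was thus not one that passed in the main fit. With these 3 libraries the means at B in FS animals, on own totals, were 599 CPM for PCK2 and 91.3 CPM for PPP1R3C. At FR8vFR2 in FS animals, with 1 gene, DESeq2 passed 2, limma 3, the fit without the 5 animals 3 and leaving out single animals 1 to 2. Of all genes, DESeq2, limma and the fit without the 5 animals passed 32.5%, 53.8% and 47.6%, and the main fit 28.4%. At FR20vFR8 in FS animals, with 0, DESeq2 passed 2, the likelihood ratio test 1, limma 4, the fit without the 5 animals 4 and leaving out single animals 0 to 2. Of all genes, the first 4 of these passed 9.78%, 8.14%, 28.9% and 29%, and the main fit 6.39%. In CPF animals limma passed 1 at FR20vB and 1 at FR20vFR8, the fit without the 5 FS animals 2 at FR20vFR8, no filter and no replicate block 1 each at FR8vFR2, and leaving out single animals 0 to 2 at FR8vB and at FR8vFR2. Of all genes there, limma passed 15.8% and 2.51%, the fit without the 5 FS animals 3.7%, no filter 3.84% and no replicate block 4.08%. Without the replicate block 3 calls were lost, PCK2 at FR2vB in FS animals (adjusted p = 0.0586), PPP1R3C at FR8vB in FS animals (0.0792) and PCK2 at FR8vFR2 in CPF animals (0.0603), and no other call on the 6 genes changed. PPP1R3C between animals that died and lived at FR2 reversed to -0.098 without FS animal 20, the lowest of a range that reached 1.802 over the fits leaving out single animals. The cause of these changes was not tested.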
